A study of Mus musculus with 11 samples.

Results

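Fatty acid elongases and desaturases build the long and unsaturated fatty acids of the cell, and 8 of their genes (Elovl1, Elovl2, Elovl3, Elovl5, Fads1, Fads2, Fads3 and Scd2) are described here in the liver of diabetic mice. A gene was taken when an array probe was designed on one of its RefSeq transcripts. The 8 genes had 9 probes, of 20144 genes with a probe and 39429 gene probes in all, and Elovl1 was the only member with 2 probes. The study hybridised liver RNA of db/db mice (obese and diabetic for want of a functional leptin receptor) to two-colour Agilent mouse arrays. The treated group was 6 samples, numbered 1 to 6, of db/db mice given the monoclonal antibody 3c7.v44, which binds the glucagon receptor, at 5 mg/kg (anti-GCGR). The comparison group was 5 samples of db/db mice given phosphate-buffered saline (PBS), numbered 1, 3, 4, 5 and 6. Both groups carry the db/db genotype, so no lean liver enters any comparison, and the labels give neither the age of the mice nor the length of treatment.

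In mammals, dietary linoleic and alpha-linolenic acid are turned into arachidonic acid and docosahexaenoic acid (DHA) by alternating desaturation and elongation in the endoplasmic reticulum, with a last shortening step in the peroxisome. The Fads1 and Fads2 enzymes insert double bonds toward the front end of the chain. The Elovl enzymes catalyse the first and rate-setting step of each round of elongation, and stearoyl-CoA desaturases make oleic and palmitoleic acid from saturated chains. Liver is a main site of all of these reactions, and in rodent liver many of their genes are known targets of SREBP-1c, the liver X receptor and PPAR alpha. Glucagon, the hormone of fasting, acts on hepatocytes through the receptor that the antibody blocks.

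The values are log2 ratios of liver RNA, labelled in Cy5, over a pooled mouse reference RNA, labelled in Cy3, on the same array. A ratio compares 1 probe between arrays and does not rank different genes by abundance. Every member was well above background in Cy5 on all 11 arrays. Median Cy5 signals over gene spots lay between 85 and 110 scanner units over a background of 26 to 27, and 66.2% to 77.1% of the gene spots on an array were well above background. All 8 hepatocyte markers (such as Alb and Apoa1) were above background, none of them was called, and their summed Cy5 signal spanned 4400650 to 5484570 units in anti-GCGR livers and 4466160 to 5640260 units in PBS livers. The arrays lay on 3 slides, each with both groups. On every slide the anti-GCGR samples took places 3 and 4 and the PBS samples places 1 and 2, so place on the slide and treatment cannot be told apart. Nothing in the labels says that the samples came from separate animals, and p-values then cover only how far these arrays scatter, which may be technical. The number of arrays limits the precision of every value.

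Elovl5 and Elovl3 rose in anti-GCGR livers, and the other 6 members did not pass the test. Elovl5, which lengthens polyunsaturated chains, was 1.83-fold higher, and Elovl3, which makes very long saturated and monounsaturated chains, was 1.51-fold higher. A gene was called at an adjusted p under 0.05 in limma's moderated test with Benjamini-Hochberg adjustment over the 15974 genes tested. Thus 2 of 8 members were called higher and 0 lower. Of all genes tested, 8.98% were called higher, 5.66% lower and 14.6% in either direction. The members were chosen with earlier results of these data known, so their count cannot show an excess over all genes. Each array centred on its median in place of loess gave 21.3% of calls over all genes as higher, against 61.3% as reported, and 1 member, Elovl5, was then called. The groups did not overlap for 1 of 8 members, Elovl5, which lay higher. Among all genes tested, 3.97% lay wholly higher in anti-GCGR livers, 2.68% wholly lower, and 6.65% did not overlap in either direction. The median log2 fold change was 0.13 over the 8 members and 0.01 over all genes tested. Levels in whole liver do not tell fewer cells of a type from less RNA per cell.

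**Figure D1:**
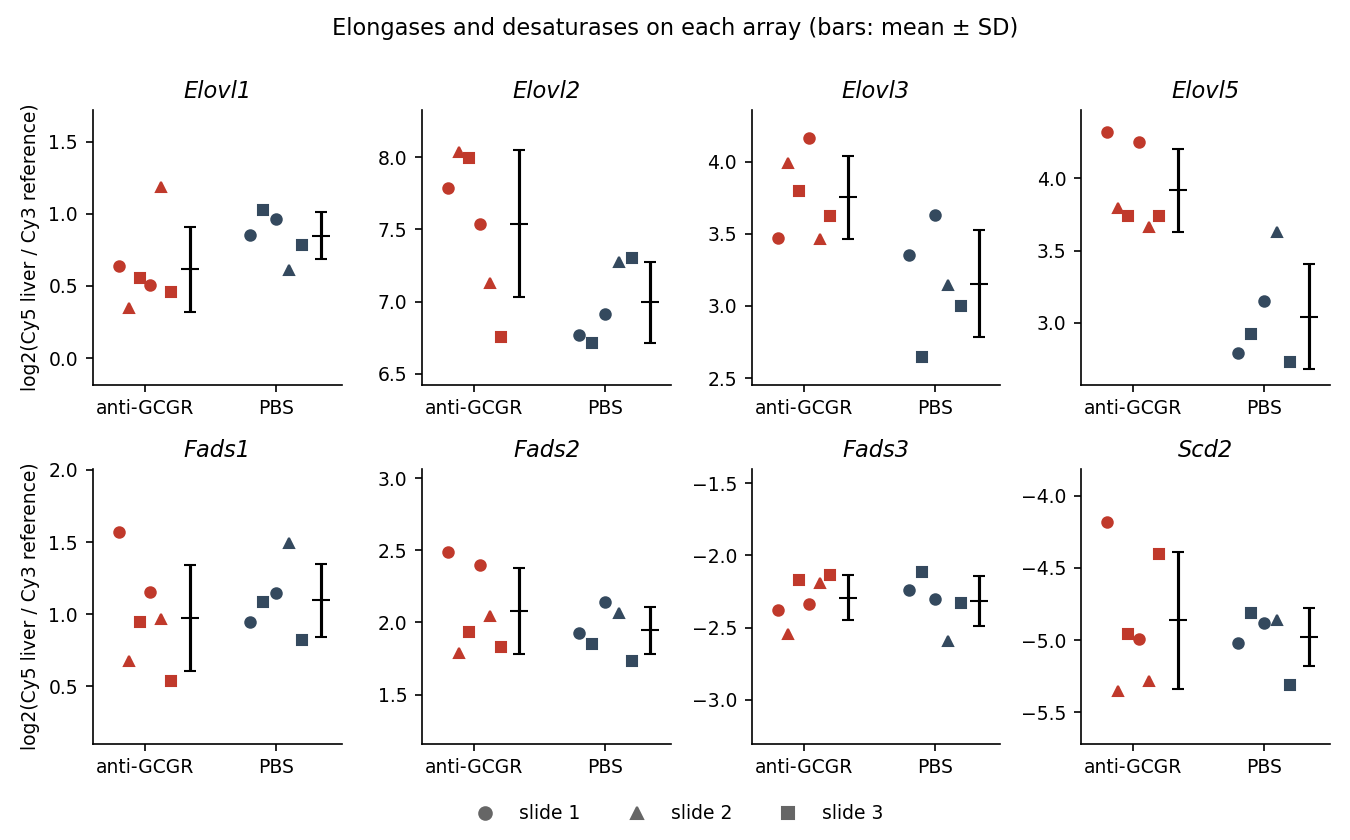
Log2 ratio of liver (Cy5) over reference (Cy3) of the 8 members on each of 6 anti-GCGR and 5 PBS arrays, with 1 point an array, its marker shape giving the slide, and bars at the mean ± SD. The anti-GCGR points of Elovl5 lie between 3.66 and 4.32, all above the PBS points at 2.73 to 3.63, while in the other panels the groups overlap.

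Elovl5 elongates polyunsaturated chains between the actions of the Fads2 and Fads1 enzymes, and in rodent liver it also lengthens palmitoleic acid. In anti-GCGR livers 1 to 6 its log2 ratio was 4.32, 3.80, 3.74, 4.25, 3.66 and 3.74, against 2.79, 2.92, 3.15, 3.63 and 2.73 in PBS livers 1, 3, 4, 5 and 6. All 6 anti-GCGR values lay above all 5 PBS values, with anti-GCGR livers 1 and 4 the highest and PBS liver 5 just below the lowest treated liver. The mean log2 ratio was 3.92 ± 0.29 in anti-GCGR livers (SD, n = 6) and 3.04 ± 0.37 in PBS livers (SD, n = 5). The log2 fold change was 0.88 ± 0.17 (SE), with a 95% interval of 0.51 to 1.24 and a limma adjusted p of 0.00833. An exact permutation test over all splits of the 11 arrays into 6 and 5 gave a two-sided p of 0.00216, the smallest that these splits allow. Within slides the difference of means was 1.31 on slide 1, 0.10 on slide 2 and 0.92 on slide 3. Slide 2 held a single PBS array, the liver numbered 5, and its 2 anti-GCGR livers lay below livers 1 and 4. Elovl5 was called under all 17 other settings tried (log2 fold change 0.76 to 1.12) and without each array in turn (0.80 to 1.02).

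For Elovl5 the groups differed more in the liver channel than in the reference channel. Its Cy5 signal spanned 39423 to 65325 scanner units (median 51163) in anti-GCGR livers and 20107 to 41041 units (median 26592) in PBS livers. The reference channel, which holds the same pooled RNA on every array, gave 3456 to 4456 units on anti-GCGR arrays and 3064 to 3770 units on PBS arrays. After background correction and before loess, the mean log2 signal of Elovl5 differed between the groups by 0.88 in Cy5 and 0.14 in Cy3, where a median gene differed by 0.01 in Cy5 and 0.11 in Cy3.

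Elovl3, an elongase of skin, brown fat and liver whose liver expression in mice follows the time of day and sex, was the second member to rise. Its log2 ratio was 3.47, 3.99, 3.80, 4.17, 3.46 and 3.62 in anti-GCGR livers 1 to 6, against 3.35, 2.65, 3.63, 3.14 and 3.00 in PBS livers 1, 3, 4, 5 and 6. The groups overlapped through PBS liver 4, which lay above anti-GCGR livers 1, 5 and 6, while PBS liver 3 was the lowest of all. The means were 3.75 ± 0.29 in anti-GCGR livers (SD, n = 6) and 3.16 ± 0.37 in PBS livers (SD, n = 5). The log2 fold change was 0.60 ± 0.17 (SE), with a 95% interval of 0.23 to 0.96, a limma adjusted p of 0.0345 and a two-sided exact permutation p of 0.0216. The difference ran the same way on each slide, at 0.32 on slide 1, 0.58 on slide 2 and 0.89 on slide 3. The call was lost without any of 7 arrays, with log2 fold changes of 0.55, 0.59 and 0.51 without anti-GCGR livers 2, 3 and 4 and of 0.65, 0.47, 0.59 and 0.56 without PBS livers 1, 3, 5 and 6. The adjusted p lay between 0.0155 and 0.0798 over all 11 fits that left out 1 array. The scanner software's own ratio gave 0.19 (limma adjusted p = 0.395).

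The reference signal of Elovl3 was dim and differed between the groups. Its Cy5 signal spanned 809 to 1648 units in anti-GCGR livers and 432 to 860 units in PBS livers. Its Cy3 signal spanned 81.0 to 103 units on anti-GCGR arrays and 64.5 to 76.0 units on PBS arrays, over a local background of 24.5 to 38.0 units. On the same scale, before loess, the Elovl3 means differed by 0.81 in log2 Cy5 and by 0.36 in log2 Cy3, where a median gene differed by 0.01 in Cy5 and 0.11 in Cy3. The part of the reference signal in the change was not tested, and Cy5 alone also gave a call.

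**Figure D2:**
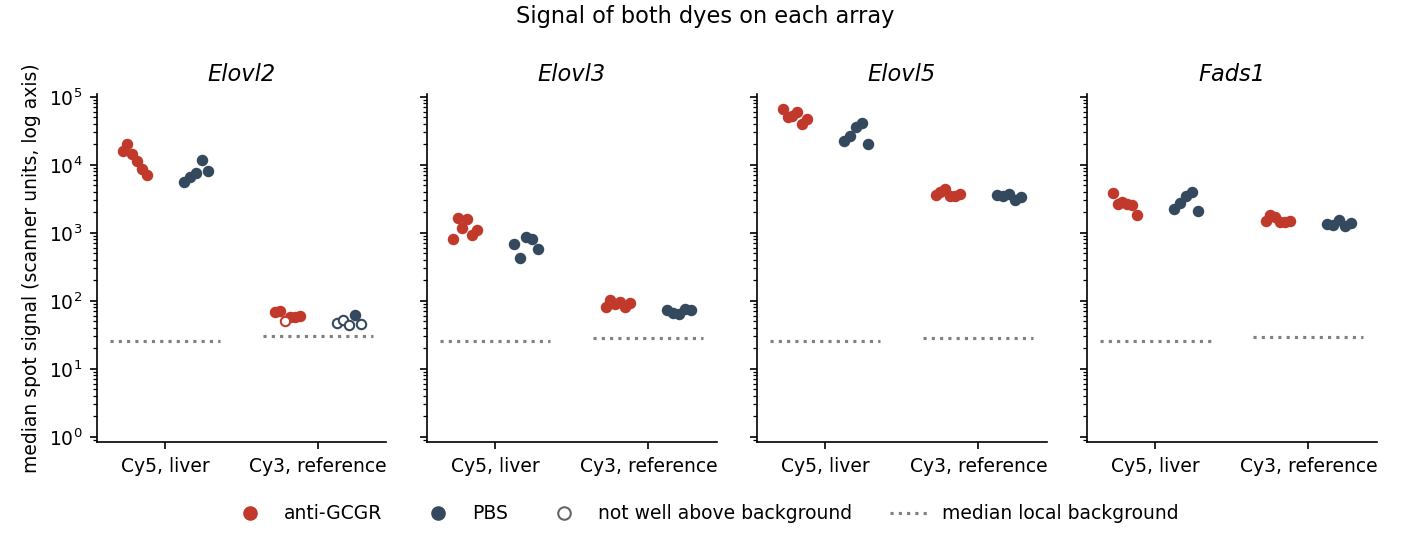
Median spot signal in scanner units on a log axis, in Cy5 (liver) and Cy3 (reference), for Elovl2, Elovl3, Elovl5 and Fads1 on 6 anti-GCGR and 5 PBS arrays, with 1 point an array. Open points were not well above background, and dotted lines mark the median local background. Elovl2 has bright Cy5 points and Cy3 points of 44.5 to 72.0 units near the background, while both dyes of Elovl5 and Fads1 lie far above it.

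Elovl2, the elongase that carries polyunsaturated chains on toward DHA and is strongly expressed in liver, did not pass the test. Its log2 ratio was 7.79, 8.04, 7.99, 7.54, 7.13 and 6.76 in anti-GCGR livers 1 to 6, against 6.77, 6.71, 6.91, 7.27 and 7.30 in PBS livers 1, 3, 4, 5 and 6. Anti-GCGR livers 1 to 4 lay above all PBS livers, whereas livers 5 and 6 lay among them. The log2 fold change was 0.55 ± 0.22 (SE), with a 95% interval of 0.08 to 1.02, a limma adjusted p of 0.109 and an exact permutation p of 0.0693. Without anti-GCGR liver 6 it was 0.70 and was called (limma adjusted p = 0.0298). In the liver channel Elovl2 gave 7074 to 20329 units in anti-GCGR livers and 5532 to 11782 units in PBS livers. Its reference signal was well above background on 5 of 6 anti-GCGR and 1 of 5 PBS arrays. With the scanner software's ratio, which subtracts the background from both dyes, it stood at -0.60 on the log2 scale (limma adjusted p = 0.267), so Elovl2 changed sign under that setting. With normexp offset 0 it was 0.05 (limma adjusted p = 0.913). Cy5 alone, which leaves out the dim reference, gave 0.65 for Elovl2, also without a call (limma adjusted p = 0.0759).

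Elovl1, which makes the very long saturated chains of sphingolipids, was the only elongase among the members with a negative value. Its log2 ratio was 0.64, 0.35, 0.55, 0.50, 1.18 and 0.46 in anti-GCGR livers 1 to 6, against 0.86, 1.03, 0.97, 0.61 and 0.79 in PBS livers 1, 3, 4, 5 and 6. Anti-GCGR liver 5 was the highest of all 11 samples, and PBS liver 5 was the lowest of its group. The log2 fold change was -0.23 ± 0.13 (SE), with a 95% interval of -0.52 to 0.05 and a limma adjusted p of 0.248 (exact permutation p = 0.149). Without anti-GCGR liver 5 it was -0.35 and was called (limma adjusted p = 0.00843), and without both livers numbered 5 it was -0.41 (limma adjusted p = 0.00211). On slides 1 and 3 the difference was -0.34 and -0.40, and on slide 2, which holds both livers numbered 5, it was 0.16. The second probe of Elovl1 gave -0.14 ± 0.13 (SE), with an adjusted p of 0.518 over all probes tested.

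The front-end desaturases of arachidonic acid and DHA synthesis did not pass the test. Fads2 carries out the first desaturation, known as a slow step of the pathway. Fads2 had log2 ratios of 2.49, 1.79, 1.93, 2.40, 2.04 and 1.83 in anti-GCGR livers 1 to 6, against 1.93, 1.85, 2.14, 2.06 and 1.73 in PBS livers 1, 3, 4, 5 and 6. Anti-GCGR livers 1 and 4, which were also the highest for Elovl5, lay above every PBS liver, and the other 4 lay among them. The log2 fold change of Fads2 was 0.14 ± 0.13 (SE), with a 95% interval of -0.15 to 0.42 and a limma adjusted p of 0.533. Fads1 inserts the last double bond of arachidonic acid. It had log2 ratios of 1.57, 0.68, 0.95, 1.15, 0.97 and 0.54 in anti-GCGR livers 1 to 6, against 0.94, 1.08, 1.15, 1.49 and 0.82 in PBS livers 1, 3, 4, 5 and 6. The treated livers spanned a wider range than the PBS livers on both sides. The log2 fold change of Fads1 was -0.12 ± 0.17 (SE), with a 95% interval of -0.48 to 0.24 and a limma adjusted p of 0.677. Its within-slide differences were 0.32, -0.67 and -0.21 on slides 1, 2 and 3. Its interval left out a change in either direction as large as the 0.88 of Elovl5.

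Fads3 and Scd2 had negative log2 ratios on every array, meaning less signal from liver than from the pooled reference. Fads3 is a close relative of Fads1 and Fads2 and lies next to them on chromosome 19. Its log2 ratio was -2.38, -2.54, -2.17, -2.34, -2.19 and -2.13 in anti-GCGR livers 1 to 6, against -2.24, -2.12, -2.30, -2.59 and -2.33 in PBS livers 1, 3, 4, 5 and 6. The groups covered nearly the same range, and the log2 fold change was 0.02 ± 0.09 (SE), with a 95% interval of -0.17 to 0.22, the narrowest among the members, and a limma adjusted p of 0.896. Scd2 is the stearoyl-CoA desaturase known in mice mainly from brain and newborn tissues. Scd2 had log2 ratios of -4.18, -5.35, -4.96, -4.99, -5.29 and -4.40 in anti-GCGR livers 1 to 6, against -5.02, -4.81, -4.88, -4.86 and -5.31 in PBS livers 1, 3, 4, 5 and 6. Anti-GCGR livers 1 and 6 were the highest, the lowest value of each group was nearly the same, and the log2 fold change was 0.11 ± 0.19 (SE), with a 95% interval of -0.31 to 0.54 and a limma adjusted p of 0.744.

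Scd2 lies between Scd3 and Scd4 on chromosome 19, with Scd1 after them and no other protein-coding gene between these neighbours. Scd1, the main stearoyl-CoA desaturase of adult mouse liver, rose with a limma adjusted p of 0.0409 (log2 fold change 1.65 ± 0.49, SE), and so did Scd3, known from skin, with one of 0.0217 (log2 fold change 1.60 ± 0.41, SE). Scd3 had 3 kept probes, and their mean gave a smaller rise, 0.61 ± 0.14 (SE, limma adjusted p = 0.0160). Scd4 did not pass the test, at -0.02 ± 0.06 (SE, limma adjusted p = 0.882). The Scd genes are close relatives, and how far their probes bind one another's transcripts was not tested. Likewise no protein-coding gene lies between Fads3 and Fads2, or between Fads2 and Fads1.

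The members were also set against each other on the same arrays, which asks whether 1 gene changed more than another. Of 28 pairs, 10 had a two-sided exact permutation p under 0.05 without adjustment, and in 2 pairs the groups did not overlap. Both were Elovl5 against a desaturase of the same pathway. As Elovl5 alone already had no overlap, these 2 pairs are not separate support for its rise. Most of the 10 pairs hold Elovl5 or Elovl3, both already called alone, and are likewise not separate support for those rises. The share over all pairs of genes was not computed. The 6.65% of single genes without overlap is an unlike measure, so the pair counts have no background here. Taken from the PBS mean, Elovl5 minus Fads1 was 0.75 to 1.26 on anti-GCGR arrays, against -0.11 to 0.19 on PBS arrays, a difference of 0.997 (exact permutation p = 0.00216). Elovl5 minus Fads2 was 0.52 to 0.91 on anti-GCGR arrays, against -0.24 to 0.47 on PBS arrays, a difference of 0.74 (exact permutation p = 0.00216). The change of Elovl5 thus exceeded those of Fads1 and Fads2 on every treated array. It exceeded that of Fads3 by 0.85 (exact permutation p = 0.0152) and that of Scd2 by 0.76 (exact permutation p = 0.0108). Elovl5 was not shown to differ from Elovl3 or Elovl2 in its change. Elovl3 minus Elovl5 was -0.28 (exact permutation p = 0.288) and Elovl2 minus Elovl5 was -0.33 (exact permutation p = 0.245). Elovl1 minus Elovl5 was -1.11 (exact permutation p = 0.0108). The change of Fads1 was below that of its neighbour Fads2 by 0.26 on the log2 scale (exact permutation p = 0.0238), although neither passed the test alone.

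**Figure D3:**
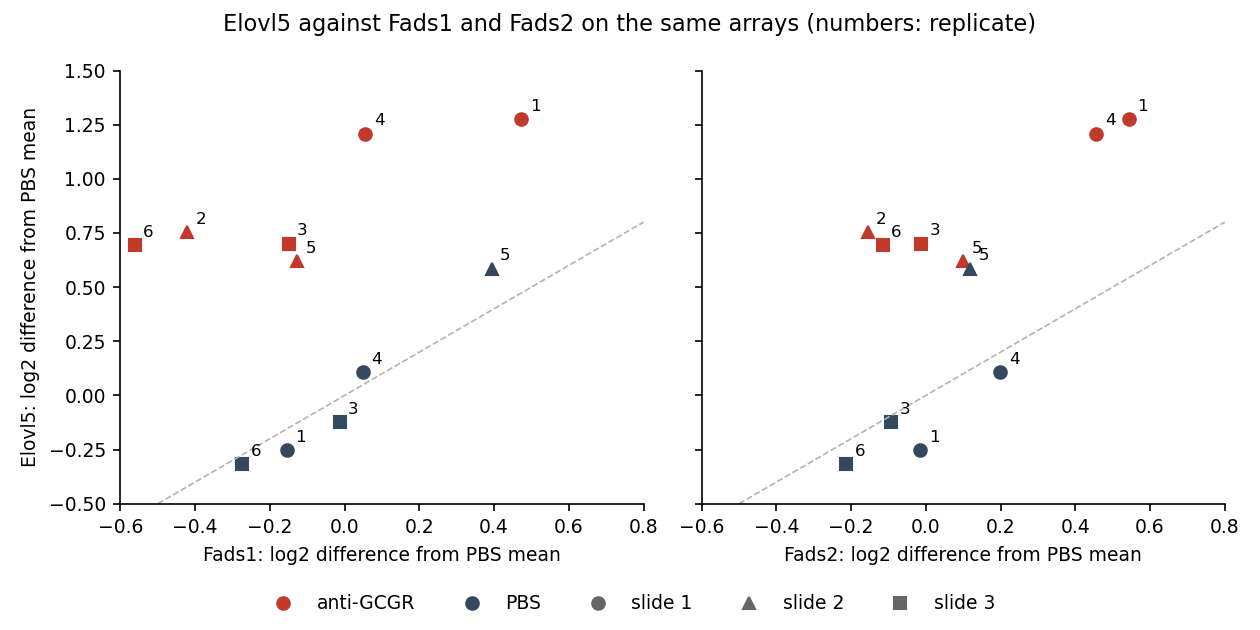
Log2 difference from the PBS mean of Elovl5 (vertical axis) against Fads1 and Fads2 (horizontal axes) on each of 6 anti-GCGR and 5 PBS arrays, with replicate numbers beside the points and equal change on the dashed line. The anti-GCGR points lie above the line by 0.75 to 1.26 for Fads1 and by 0.52 to 0.91 for Fads2, and within groups r is 0.83 for Fads1 and 0.78 for Fads2.

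Within the groups, Elovl5, Fads1 and Fads2 varied together. After each group mean was subtracted, Pearson's r over the 11 arrays was 0.83 between Elovl5 and Fads1, 0.78 between Elovl5 and Fads2 and 0.87 between Fads1 and Fads2. Elovl5 and Fads3 gave -0.61, Elovl2 and Fads3 gave -0.66, and Elovl1 and Fads3 gave 0.55. The points share arrays and normalization, so these values are a description. Fads1 and Fads2 are neighbours, while Elovl5 lies on chromosome 9.

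Over all genes tested, the 2 patterns nearest to Elovl5 within groups were those of Pcnx (r = 0.96) and Sec31b (r = 0.96). The nearest to Fads1 were Mon1b (0.94) and Abcc4 (0.92), and to Fads2 Tbc1d4 (0.93) and Btbd9 (0.93). For Elovl3 they were Krt6a (0.94) and Abcc2 (0.89), and for Elovl2 Trnau1ap (0.95) and Sh3glb2 (0.94). For Fads3 they were Apba2 (0.96) and Cenpa (0.95), and for Scd2 Tax1bp3 (0.93) and Kdm1a (0.92). Elovl1 was nearest to Pter and Cul2 (0.98 each). Pter, at -0.43 ± 0.11 (log2 fold change ± SE, limma adjusted p = 0.0248), was the only called gene among these 16, against 14.6% of all genes. The highest r was picked from all genes tested over 11 arrays, so values this high partly reflect the choice.

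Because Elovl5 and Fads2 varied together but differed in their change, the 250 bases before their transcription starts are shown, with those of Fads3 as a member whose groups covered nearly the same range. The sequences are RefSeq's for build GRCm38.p6 and run 5′ to 3′ on the strand of the gene. Capitals mark an E-box (CACGTG) or an NF-Y box (CCAAT, or ATTGG where it lies on the other strand).
Elovl5, chr9:77917115-77917364, plus strand: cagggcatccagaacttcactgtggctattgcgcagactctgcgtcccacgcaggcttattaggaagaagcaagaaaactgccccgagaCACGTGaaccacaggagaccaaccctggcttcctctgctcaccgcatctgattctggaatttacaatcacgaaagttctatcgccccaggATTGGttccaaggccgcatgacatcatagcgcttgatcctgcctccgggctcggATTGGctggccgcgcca
Fads2, chr19:10101504-10101753, minus strand: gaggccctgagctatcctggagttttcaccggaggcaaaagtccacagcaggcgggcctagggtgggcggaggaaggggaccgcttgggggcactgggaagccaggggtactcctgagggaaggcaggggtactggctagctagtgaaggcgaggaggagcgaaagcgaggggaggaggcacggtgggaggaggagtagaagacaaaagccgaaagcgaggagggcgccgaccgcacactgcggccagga
Fads3, chr19:10041298-10041547, plus strand: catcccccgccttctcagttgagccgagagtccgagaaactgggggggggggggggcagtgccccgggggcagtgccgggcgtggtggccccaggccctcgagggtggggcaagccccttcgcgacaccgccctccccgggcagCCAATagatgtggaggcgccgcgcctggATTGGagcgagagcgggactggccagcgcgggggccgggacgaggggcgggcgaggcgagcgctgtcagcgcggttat

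Elovl5 held 1 E-box, 161 to 156 bases before the start, and 2 NF-Y boxes on the other strand, at 71 to 67 and 17 to 13 bases before it. The E-box occurred in 6.02% and the NF-Y box in 33.9% of 32851 such windows. Fads2 held neither, but 1 Sp1 box (GGGCGG, in 32.7% of windows) at 186 to 181 bases before the start. Fads3, which did not pass the test, held 2 NF-Y boxes as Elovl5 did, and 2 Sp1 boxes, at 123 to 118 and 34 to 29 bases before the start. The Elovl5 window held no Sp1 box. The search covered both strands of the 7 windows of 5 members (Elovl1, Elovl2, Elovl5, Fads2 and Fads3). No window held the sterol regulatory element searched (TCACNCCAC, in 1.05% of all windows) or the cAMP response element (TGACGTCA, in 1.55%) or its half-site (TGACG, in 17.8%). Nor did any hold direct repeats of AGGTCA spaced as for PPAR or the liver X receptor. A match is a run of letters, and its absence refers to these windows alone.

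Of 78 tested genes that act with the members, 21 were called higher, 2 lower and 55 not, while arrays centred on their median gave 6 higher and 10 lower. Over all genes tested, 8.98% were called higher and 5.66% lower, and the median log2 fold change was 0.09 over the 78 genes and 0.01 over all. The list of other elongases and desaturases also held Far2, a fatty acyl-CoA reductase. In it 3 of 9 tested genes rose: Elovl6, which turns palmitic into stearic acid (1.85 ± 0.38, limma adjusted p = 0.0104), Scd1 and Scd3. Elovl6 was called without each array in turn, Scd1 in 3 of those 11 fits and Scd3 in 10. Values here are log2 fold changes ± SE, and each list gene named by rule kept its sign under the 17 other settings.

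In the list of remaining steps of the elongation cycle, 2 of 7 tested genes rose, against 8.98% of all genes, and 5 did not pass. The 7 include Mecr, a reductase of mitochondrial fatty acid synthesis. Those that rose were Hsd17b12, a reductase of the cycle (0.41 ± 0.10, limma adjusted p = 0.0203), and Hacd4, of the dehydratase family (0.25 ± 0.06, limma adjusted p = 0.0203). Tecr, which completes each cycle, was at 0.26 ± 0.08 (limma adjusted p = 0.0508). Electrons reach desaturases through cytochrome b5, and in that group 2 of 7 rose. They were Cyb5r3, a reductase of cytochrome b5 (0.61 ± 0.17, limma adjusted p = 0.0314), and its relative Cyb5rl (0.21 ± 0.05, limma adjusted p = 0.0159), while Cyb5a itself was at -0.24 ± 0.09 (limma adjusted p = 0.0850). Cyb5r3 was called in 4 of 11 fits without 1 array, Hsd17b12 in 9, Hacd4 in 10 and Cyb5rl in 11. Tecr, Cyb5a and Scd4 were named after their values were seen.

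Among genes that activate or bind acyl-CoA and fatty acids, 5 of 13 rose and 1 fell, against 8.98% and 5.66% of all genes. The largest rises were Dbi, an acyl-CoA-binding protein (0.53 ± 0.14, limma adjusted p = 0.0283), Fabp1, the liver fatty acid-binding protein (0.52 ± 0.12, limma adjusted p = 0.0160), and Fabp2, its intestinal relative (0.44 ± 0.13, limma adjusted p = 0.0437). Slc27a1, a fatty acid transport protein, fell (-0.45 ± 0.11, limma adjusted p = 0.0186). Without 1 array, Fabp1 and Slc27a1 were called in all 11 fits, Dbi in 5 and Fabp2 in 2.

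Of 12 peroxisomal genes that serve the last shortening toward DHA, 2 rose: Acaa1b, a thiolase (0.45 ± 0.10, limma adjusted p = 0.0123), and Acox3, an oxidase (0.18 ± 0.05, limma adjusted p = 0.0349). Calls of a rise covered 8.98% of all genes tested. Of 10 genes that place polyunsaturated chains in phospholipids or release them, 3 rose. They were Agpat3, an acyltransferase (0.37 ± 0.08, limma adjusted p = 0.0120), Pla2g4a, which releases arachidonic acid (0.31 ± 0.07, limma adjusted p = 0.0176), and Lpcat3, which places it in phosphatidylcholine (0.28 ± 0.07, limma adjusted p = 0.0267). Acaa1b, Agpat3 and Pla2g4a were called in all 11 fits without 1 array, Lpcat3 in 4 and Acox3 in 3.

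Among 20 known regulators of these enzymes, 4 rose, 1 fell and 15 did not pass, where 14.6% of all genes were called in either direction. Their median log2 fold change was -0.0044, against 0.01 over all genes. Insig2, which holds SREBP precursors in the endoplasmic reticulum (0.59 ± 0.16, limma adjusted p = 0.0296), Srebf1, the gene of SREBP-1 (0.57 ± 0.15, limma adjusted p = 0.0224), and Ppara (0.32 ± 0.09, limma adjusted p = 0.0302) rose. Ppargc1b, a coactivator of SREBP-1, fell (-0.51 ± 0.15, limma adjusted p = 0.0358). Nr1h3, the liver X receptor alpha, was at -0.05 ± 0.06 (limma adjusted p = 0.653), but with Cy5 alone it was called lower, at -0.31 ± 0.07 (limma adjusted p = 0.0155). Mlxipl, the carbohydrate response factor ChREBP, was at 0.17 ± 0.06 (limma adjusted p = 0.0877), fitted on 5 anti-GCGR arrays because 1 uneven spot was dropped. Without 1 array, Srebf1 was called in 8 of 11 fits, Ppara and Ppargc1b in 4 and Insig2 in 3.

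**Figure D4:**
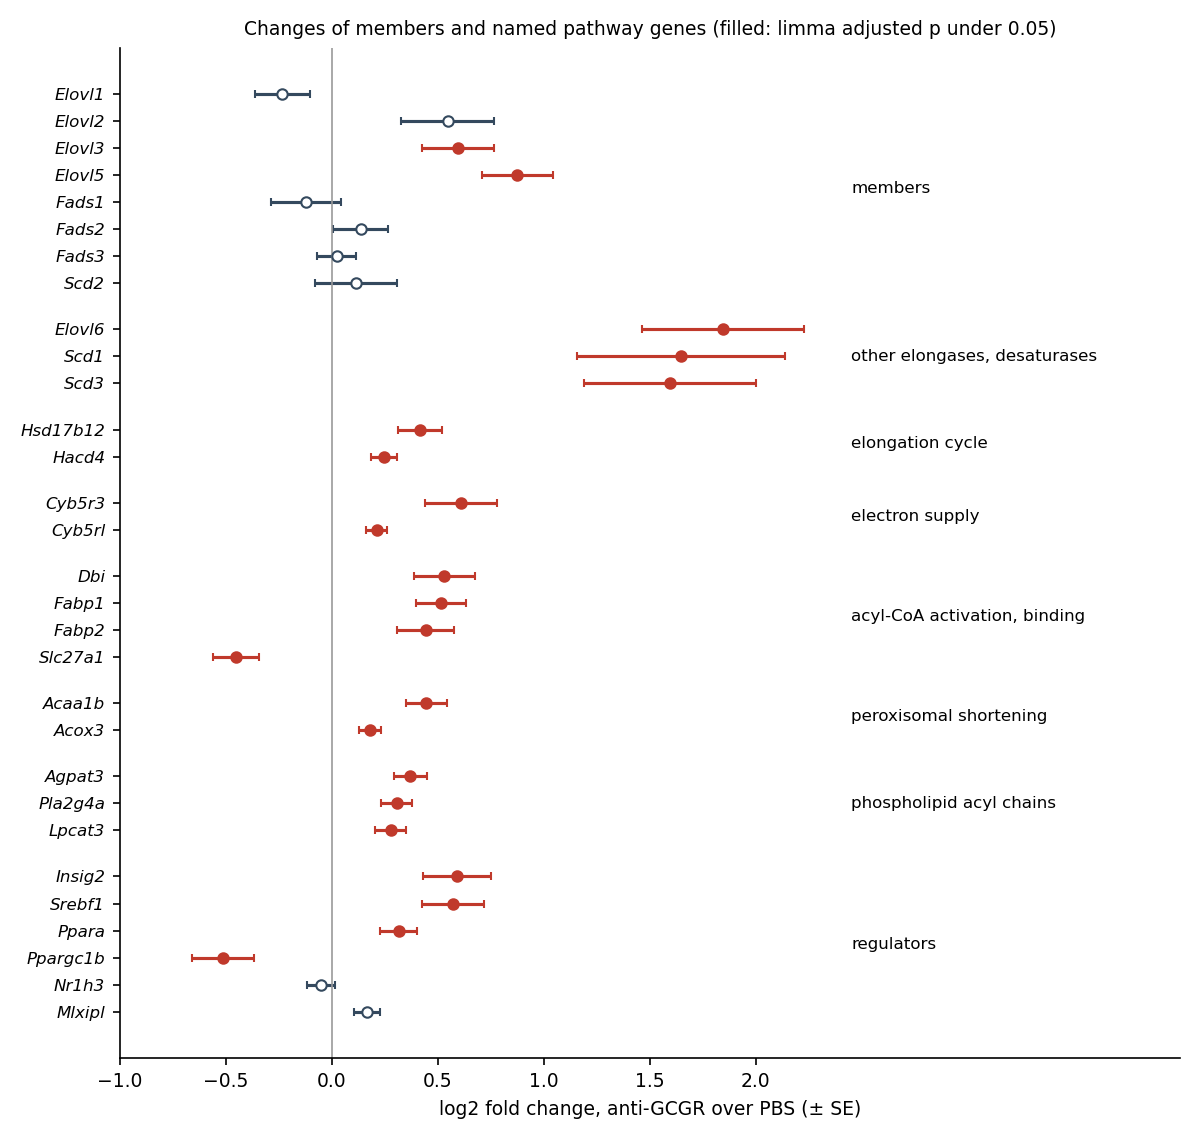
Log2 fold change, anti-GCGR over PBS (6 and 5 arrays), with its standard error, for the 8 members and the named genes of 7 related groups. Filled points passed the limma test (adjusted p under 0.05). Elovl5 at 0.88 and Elovl3 at 0.60 are the filled members, and Elovl6 at 1.85 lies farthest to the right.

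Some markers of other liver cells were called, and their part in the members' values was not tested. Among all genes tested, 8.98% were called higher, 5.66% lower and 14.6% in either direction. Stellate cell markers were called higher for 4 of 8 genes, with a summed Cy5 signal of 25958 to 46336 units in anti-GCGR livers and 23624 to 33752 units in PBS livers. Endothelial markers were called higher for 2 of 7, at 39466 to 47040 units in anti-GCGR livers and 29943 to 40596 units in PBS livers. Kupffer cell markers were called higher for 1 of 6, at 53927 to 77483 units in anti-GCGR livers and 42126 to 70176 units in PBS livers. Erythroid markers were called higher for 2 of 3 tested, and these 3 summed to 84254 to 181390 units in anti-GCGR livers and 56116 to 110954 units in PBS livers. Of 7 adipocyte markers tested, 1 rose (Cidec) and 1 fell (Lipe), at 15224.3 to 61052.7 units in anti-GCGR livers and 12724.5 to 21765.2 units in PBS livers. The other 5 did not pass, with log2 fold changes of 1.0 for Cfd (limma adjusted p = 0.0528), 0.45 for Fabp4 (0.0677), 0.16 for Retn (0.662), 0.04 for Plin1 (0.733) and -0.21 for Adipoq (0.0974). Lep and Ucp1 were not above background on any array. None of 6 cholangiocyte markers (22122 to 30183 units in anti-GCGR livers, 22013 to 28305 units in PBS livers) or 6 T and B cell markers (1452 to 2544 units in anti-GCGR livers, 1551 to 2346 units in PBS livers) was called.

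**Figure D5:**
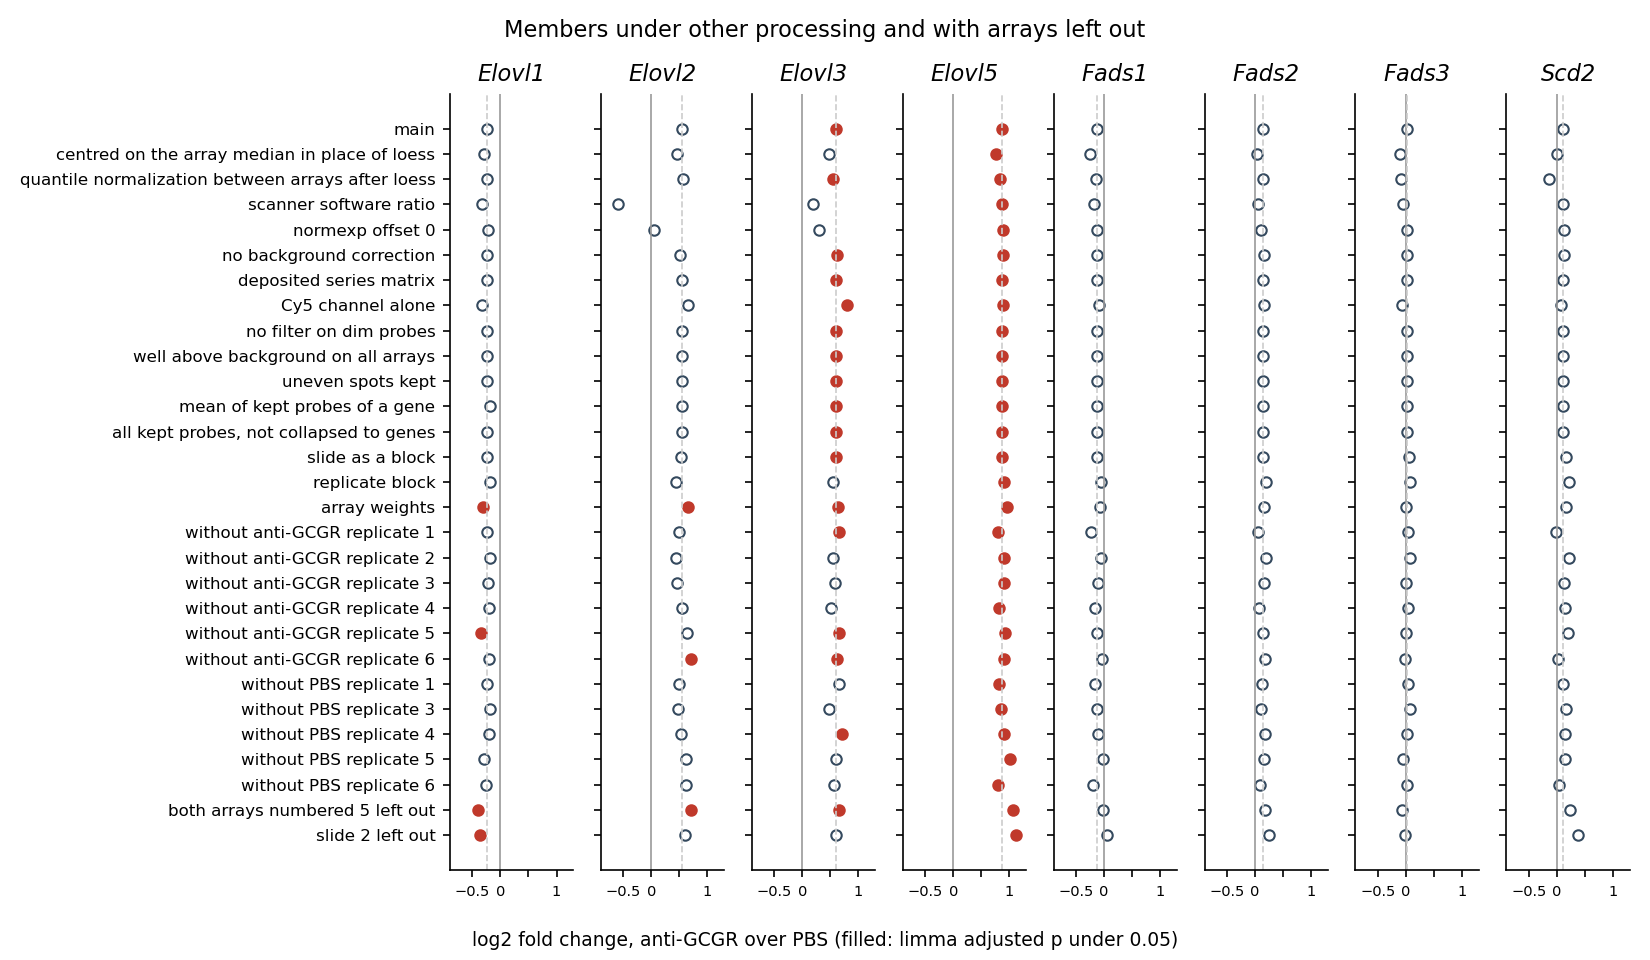
Log2 fold change of each member, anti-GCGR over PBS, as reported (top row, main) and under each other setting or with arrays left out, with filled points where the limma adjusted p was under 0.05. Elovl5 is filled in every row, Elovl3 in some, and Elovl2 falls to -0.60 with the scanner software ratio.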

How the data were processed

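Liver RNA of db/db mice was measured on two-colour arrays, with the liver in Cy5 and a pooled reference in Cy3 on all 11 arrays and no dye swap. The deposited scanner files give median spot intensity and local background per dye. They come from Agilent Feature Extraction, given as version 11 in the submitters' processing notes and as 11.5.1.1 in the headers. They also hold the software's log10 ratio of background-subtracted, dye-normalized signals, per the file headers. The authors deposited a table of log2 ratios too, and how it was made is not stated there. Compared with scanner values, it ran as Cy5 over Cy3, without centring per gene, with column medians of -0.0026, 0.0022, 0.00079, 0.0081 and 0.00021 (PBS 1, 3, 4, 5 and 6) and -0.00096, 0.0075, 0.0015, -0.0028, 0.0054 and 0.0013 (anti-GCGR 1 to 6). The median absolute difference from the values used here was 0.0032 and the largest was 0.46, and the table served as an alternative.

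Arrays were processed in limma 3.58.1 (R 4.3.3): normexp (offset 50), loess with control spots at weight 0, uneven spots dropped. Of 39429 gene probes, 26581 matched a RefSeq gene by accession. Probes were kept when well above the Cy5 background of 5 or more arrays, and the brightest stood for its gene. Groups came from the titles and were compared with lmFit and eBayes, two-sided, adjusted by Benjamini-Hochberg over 15974 genes. Single values were also tested by exact permutation. Other scalings, background corrections, filters, blocks and left-out arrays were tried, and the fit was tested on simulated data. Errors are moderated standard errors. Named genes were all members, the 3 largest rises and falls past the threshold of each related list, Srebf1, Nr1h3, Ppara and Mlxipl, and the 2 genes nearest each member within groups. The members and lists were chosen with earlier results of these data known. Of the promoter table, windows of 5 members were used. A marker gene is not reported here. Other probes, Elovl4, Far1 and other genes not kept were not analysed here.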

Additional observations from a re-analysis of the deposited data

Results flagged for a closer look

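Elovl1 in anti-GCGR liver 5, at a log2 ratio of 1.18, stood apart from the other 5 treated livers, which lay between 0.35 and 0.64. It was the only value marked by Dixon's criterion at the 95% level among 60 sets of 1 gene in 1 group (30 genes), where chance marks about 1 set in 20. The anti-GCGR set of Mlxipl is counted in the 60 but was not checked, as it lacked 1 value. The second Elovl1 probe was also highest in that liver, at 0.92 against 0.08 to 0.48 in the other treated livers.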

How the results depend on the processing

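Elovl5 kept its direction and its call under all settings with a test, with adjusted p of 0.000309 to 0.0370 under the 17 other settings and 0.00224 to 0.0271 without 1 array. Some of the 17 could not alter its log2 fold change, as Elovl5 had 1 bright probe. Within slides, which have no test, the log2 difference of Elovl5 was 1.31 on slide 1 and 0.10 on slide 2. Elovl3 lost its call with arrays centred on the median (0.47, limma adjusted p = 0.0559), the scanner software ratio (0.19), normexp offset 0 (0.30, limma adjusted p = 0.334) and slide 2 left out (0.61, limma adjusted p = 0.0561), and its range without 1 array was 0.47 to 0.72. Elovl2 was -0.60 with the scanner software ratio and 0.052 with normexp offset 0 (limma adjusted p = 0.913), was called with array weights (0.64, limma adjusted p = 0.0343) and without both livers numbered 5 (0.70, limma adjusted p = 0.0474), and spanned 0.45 to 0.70 without 1 array. Elovl1 was called lower with array weights (-0.31, limma adjusted p = 0.0381), without both livers numbered 5 (-0.41) and without slide 2 (-0.37, limma adjusted p = 0.00398). It was 0.16 within slide 2 and spanned -0.35 to -0.18 without 1 array. Fads1 was 0.053 without slide 2, 0.32 within slide 1 and -0.67 within slide 2, and Fads2 was 0.41 within slide 1 and -0.15 within slide 2. Fads3, near 0 throughout, was -0.11 with median centring, -0.089 with quantile normalization, -0.048 with the scanner software ratio, -0.062 with Cy5 alone, -0.0036 with array weights, -0.065 without both livers numbered 5 and -0.0079 without slide 2. It was 0.22 within slide 2 and spanned -0.045 to 0.074 without 1 array. Scd2 was -0.14 with quantile normalization and -0.46 within slide 2, and spanned -0.021 to 0.21 without 1 array. The cause of these changes was not tested.

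Members called numbered 1 with median centring, with the scanner software ratio and with normexp offset 0, 4 (3 higher, 1 lower) with array weights and without both livers numbered 5, and 1 to 3 without 1 array. Over all genes, 3803 were called with array weights, 3673 without both livers numbered 5, and 1247 to 3872 without 1 array, the lowest without PBS liver 1 and the highest without anti-GCGR liver 5. The count was also over 1.5 times lower without anti-GCGR liver 4 (1403) and PBS livers 3 (1425) and 4 (1539). Higher calls were 61.3% as reported, 50.4% with quantile normalization, 45.2% with the scanner software ratio and 51.3% with Cy5 alone. Of the 78 related genes, 12 were called with the scanner software ratio and 9 to 36 without 1 array. The settings without livers numbered 5 and without slide 2 were chosen after seeing the data.

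The labels do not say whether replicate numbers shared by the groups pair the samples, and 5 numbers are too few to decide it. Deviations of same-numbered arrays, which shared a slide, correlated at -0.13 to 0.14, and 1 of 5 correlated best with its own number. With a replicate block, which drops anti-GCGR liver 2, 1046 genes, 11 related genes and 1 member were called, and Elovl3 was at 0.55 (limma adjusted p = 0.0525). Signal over background limits Elovl2 and Elovl3, whose reference channel was dim.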
